A study of Mus musculus with 8 samples.

Results

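The collagen genes are the 43 protein-coding mouse genes with a symbol made of Col, a type number, the letter a and a chain number, apart from 1 such gene that was left out by the choice of members. They were found in a table of read counts for 55487 genes from the hypothalamus of C57BL/6J mice. Of the 43, 42 passed the filter on low counts, as did 17047 genes in all, and Col10a1 did not. The hypoxia group of 4 libraries came from mice kept at 7% oxygen for 2 hours, the rest being nitrogen. The normoxia group of 4 libraries came from mice of the same strain in room air, labelled 21% oxygen for 2 hours, and the labels name no genetic change or drug in either group. Neither age nor whether a library is 1 animal or a pool is given in the sources used here. The series is about how low oxygen changes what the glucocorticoid receptor does.

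Collagens are the main structural proteins of the extracellular matrix, built from chains with a repeated glycine at every turn that wind around each other in a helix. Fibrillar collagens form the cables of connective tissue, and collagen IV forms the sheet of the basement membrane that surrounds every blood vessel. In the brain, most fibrillar collagen lies in the meninges and around larger vessels, collagen IV is made mainly by endothelial and mural cells of the vessel wall, and a few collagens are made by neurons. Folding of collagen chains needs hydroxylases that use molecular oxygen, and the genes of several of these enzymes are known targets of the hypoxia-inducible factors (HIF).

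Total counts ran from 16994473 to 21694383 per library. The dissected pieces held the markers of the hypothalamus, and also those of neighbouring regions, at levels that differed between libraries. All 12 of the hypothalamic genes on the marker list passed the filter, and their summed level ran from 757 to 888 CPM in hypoxia and from 425 to 913 CPM in normoxia (CPM, counts scaled to a common library size by TMM). No gene of that list was called, and 11 of 12 log2 fold changes were positive. The 8 striatal markers summed to 584 to 946 CPM in hypoxia and 341 to 850 CPM in normoxia, with 8 positive values. The 8 thalamic markers had 0 positive values and a median log2 fold change of −0.56. In both lists 0 were called. Of the 8 cortical and hippocampal markers 7 were tested and 1 was called lower (Neurod1), beside 1.23% of all genes tested. Their median log2 fold change was −0.77. The part of tissue makeup in the collagen values was not tested. Normoxia replicate 1 had the highest thalamic sum, at 453 CPM against 117 to 209 CPM in the other 7 libraries. Normoxia replicate 2 stood apart in other lists. It had the lowest hypothalamic sum, and its 8 cortical and hippocampal markers summed to 444 CPM, against 27.3 to 106 CPM in the other 7 libraries. Most of that sum was 1 gene, Slc17a7, at 384 CPM there and at 7.92 to 80.3 CPM in the other 7. Because the tissue is a mixture of cell types, a lower count of a gene cannot be told apart between fewer cells of a type and less RNA per cell.

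Of the 42 collagen genes tested, 1 was higher in hypoxia, 0 were lower and 41 did not pass the test. The gene that passed was Col4a1, which encodes a chain of the basement membrane collagen of vessels. Across all 17047 genes, 0.915% were called higher and 1.23% lower, 2.15% in either direction, so the share of collagen genes called was near the background. A call is a Benjamini-Hochberg adjusted p under 0.05 in edgeR's quasi-likelihood fit over all genes, and 4 collagen genes had an unadjusted p under 0.05 (Col4a1, Col4a2, Col6a3 and Col5a2), beside 19.3% of all genes. The median log2 fold change of the 42 was 0.02, beside −0.01 over all genes tested, with 22 positive and 20 negative values. The standard errors of the 42 log2 fold changes ran from 0.06 to 0.46, with a median of 0.19. A value that missed the threshold does not show that a gene was the same in both groups.

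The level of the family was dominated by a few genes. Per kilobase of exon, which allows genes of different length to be compared, Col4a2 was the highest at 20.5 ± 3.01 CPM per kilobase (SD over the 8 libraries). Col6a1, a chain of the beaded-filament collagen VI, had a mean of 14.3 ± 8.72 CPM per kilobase, and 1 library carries much of that spread, as given below. Col4a1 followed at 13.3 ± 1.89 CPM per kilobase. Col25a1, a membrane-bound collagen made by neurons, was at 10.5 ± 1.91 CPM per kilobase. The range of Col6a1 across libraries overlaps those of Col4a2, Col4a1 and Col25a1, and the ranges of Col4a1 and Col25a1 overlap. The order within those pairs is not fixed by these data. The ranges of Col4a2 and Col4a1 overlap too, but Col4a2 was above Col4a1 within every library. Their ratio per kilobase, Col4a1 to Col4a2, ran from 0.579 to 0.747. Col16a1, Col9a2, Col11a2, Col9a3 and Col11a1 came next, at 8.64, 7.96, 6.27, 4.92 and 4.72 CPM per kilobase. Among the classical fibrillar chains of connective tissue, Col1a1, Col1a2 and Col3a1 were at 3.36, 3.23 and 1.49 CPM per kilobase. The low end held Col4a4, Col4a3 and Col17a1 at 0.202, 0.185 and 0.139 CPM per kilobase. Col10a1, a collagen of growth-plate cartilage, had 0 to 16 counts per library and was not tested. Its 16 counts were in normoxia replicate 2, and 2 libraries had 0 counts.

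**Figure D1:**
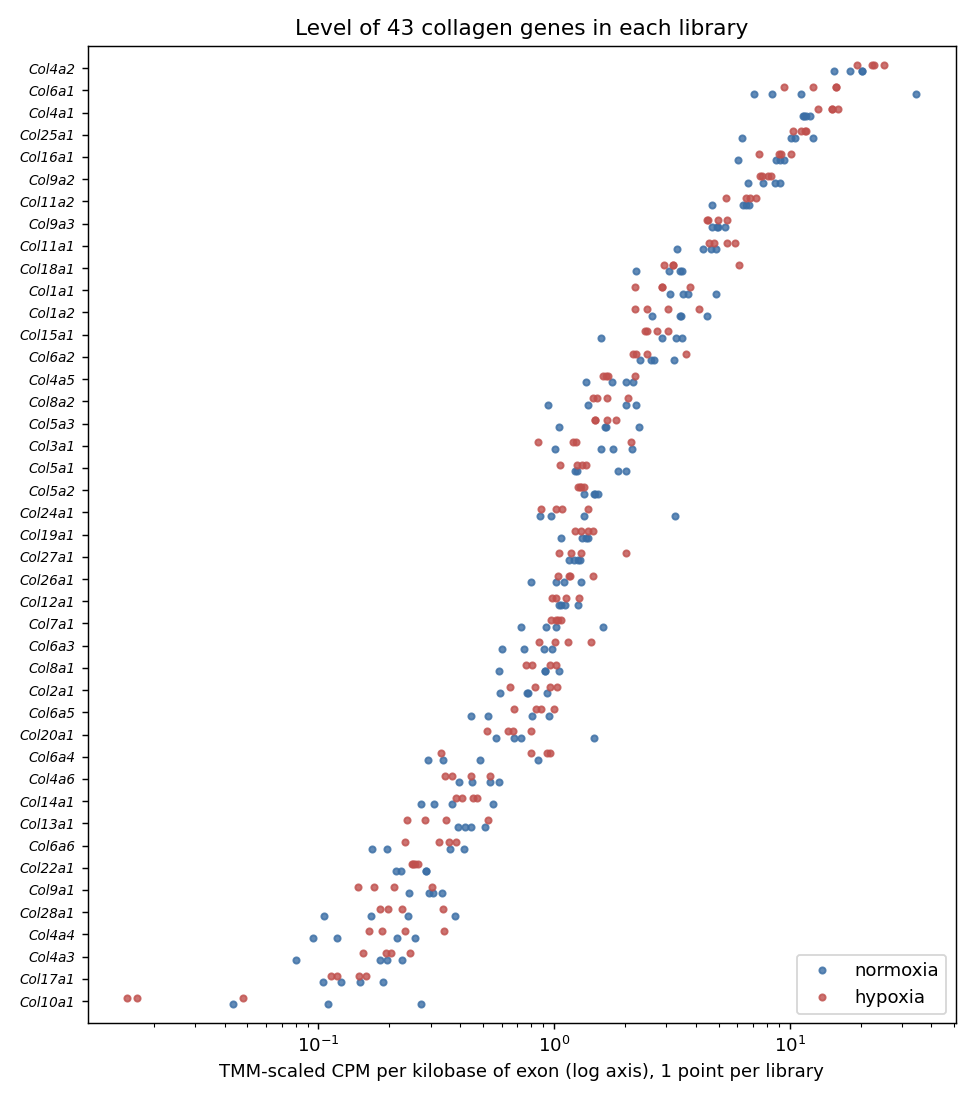
Level of each of the 43 collagen genes in TMM-scaled CPM per kilobase of exon on a log axis, with 1 point per library (blue normoxia, red hypoxia). Genes are ordered by their mean over the 8 libraries, Col4a2, Col6a1 and Col4a1 lead, and the 2 libraries with 0 counts of Col10a1 have no point.

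Collagen IV is made of 6 chains, and their genes lie head to head in 3 pairs, each pair reading outward from a shared region. Col4a1 (chromosome 8, 11198423 to 11312826, minus strand, mm10) and Col4a2 (chromosome 8, 11312805 to 11449287, plus strand) encode the chains found in nearly all basement membranes, vessels of the brain among them. Their annotated first exons overlap by 22 bases at chr8:11312805-11312826. That overlap is shown because reads within it can be assigned only if strand was used, which is not given in the sources used here. It is printed 5′ to 3′ on each strand, all in capitals, from the RefSeq windows of GRCm38.p6.
Col4a2 strand: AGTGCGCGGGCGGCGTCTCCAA
Col4a1 strand: TTGGAGACGCCGCCCGCGCACT
The overlap is 22 of 7464 exonic bases of Col4a1 and 22 of 6619 of Col4a2.

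Col4a1 was at 113, 120, 113 and 98.4 CPM in hypoxia replicates 1 to 4 and at 85.2, 85.8, 88 and 91 CPM in normoxia replicates 1 to 4. Every hypoxia library lay above every normoxia library, with the nearest values being hypoxia replicate 4 and normoxia replicate 4. The hypoxia mean was 111 ± 9.09 CPM and the normoxia mean 87.5 ± 2.64 CPM (SD over 4 libraries). Col4a1 thus rose 1.27-fold. On the log2 scale this was 0.35 ± 0.06 (SE), and the adjusted p of edgeR's fit was 0.0313. Such a separation of the groups was found for 13.4% of all genes tested, 5.69% higher and 7.75% lower. Among the collagen genes 1 was separated and higher, Col4a1, and 1 was separated and lower, Col5a2.

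The call of Col4a1 depended on which libraries were in the fit. It was kept without normoxia replicate 2 (adjusted p = 0.0245) or hypoxia replicate 4 (0.00557). It was lost without hypoxia replicate 1 (0.128), 2 (0.0961) or 3 (0.125), and without normoxia replicate 1 (0.0875), 3 (0.0835) or 4 (0.0791), while the log2 fold change stayed between 0.31 and 0.40 in the 8 fits. In the 6 fits that lost it, 24 to 42 genes of all were called higher and 2 to 8 lower, beside 156 and 210 with every library.

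Col4a2 was at 166, 148, 151 and 128 CPM in hypoxia replicates 1 to 4 and at 120, 102, 135 and 134 CPM in normoxia replicates 1 to 4. The groups overlapped, since hypoxia replicate 4 lay below normoxia replicates 3 and 4. Its log2 fold change was 0.28 ± 0.10 (SE; adjusted p = 0.188). Without normoxia replicate 2 and hypoxia replicate 4 together, it was 0.26 ± 0.06 (adjusted p = 0.047), and the background was then 2.66% of genes called higher, 4.31% lower and 6.98% in either direction. Of the 18 alternatives, only this fit called Col4a2. The pair left out holds the lowest Col4a2 value of each group, and the labels give no reason to leave out either library. This adjusted p is therefore not taken as separate support for Col4a2. Leaving out either library alone also raised the calls over all genes (329 higher and 346 lower without normoxia replicate 2, 236 and 457 without hypoxia replicate 4). The adjusted p of Col4a2 was then 0.186 and 0.105. Col4a1 and Col4a2 were both lowest within the hypoxia group in replicate 4. Within a library, the ratio of Col4a1 to Col4a2, per kilobase, had a mean of 0.667 ± 0.0472 over the hypoxia libraries and of 0.64 ± 0.0742 over the normoxia libraries (SD). The ratio ran from 0.579 to 0.747, and its groups overlapped. Col4a2 also overlaps Gm15419 on the opposite strand by 43 bases.

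The summed markers of the cells known to make collagen IV overlapped between the groups. The 12 endothelial markers summed to 289 to 330 CPM in hypoxia and 303 to 365 CPM in normoxia, with a median log2 fold change of −0.15 and 3 of 12 values positive. The 12 mural markers summed to 271 to 356 CPM in hypoxia and 285 to 348 CPM in normoxia, with a median of −0.03 and 6 of 12 positive. In each list 1 of 12 was called, beside 2.15% of all genes in either direction. They were the endothelial transporter gene Slco1a4 lower (log2 −0.48, adjusted p = 0.0369) and the pericyte channel gene Kcnj8 higher (log2 0.98, adjusted p = 0.0371). An unadjusted p under 0.05 was found for 5 of the 12 endothelial and 3 of the 12 mural markers, beside 19.3% of all genes. The part of either cell type in the Col4a1 value was not tested.

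**Figure D2:**
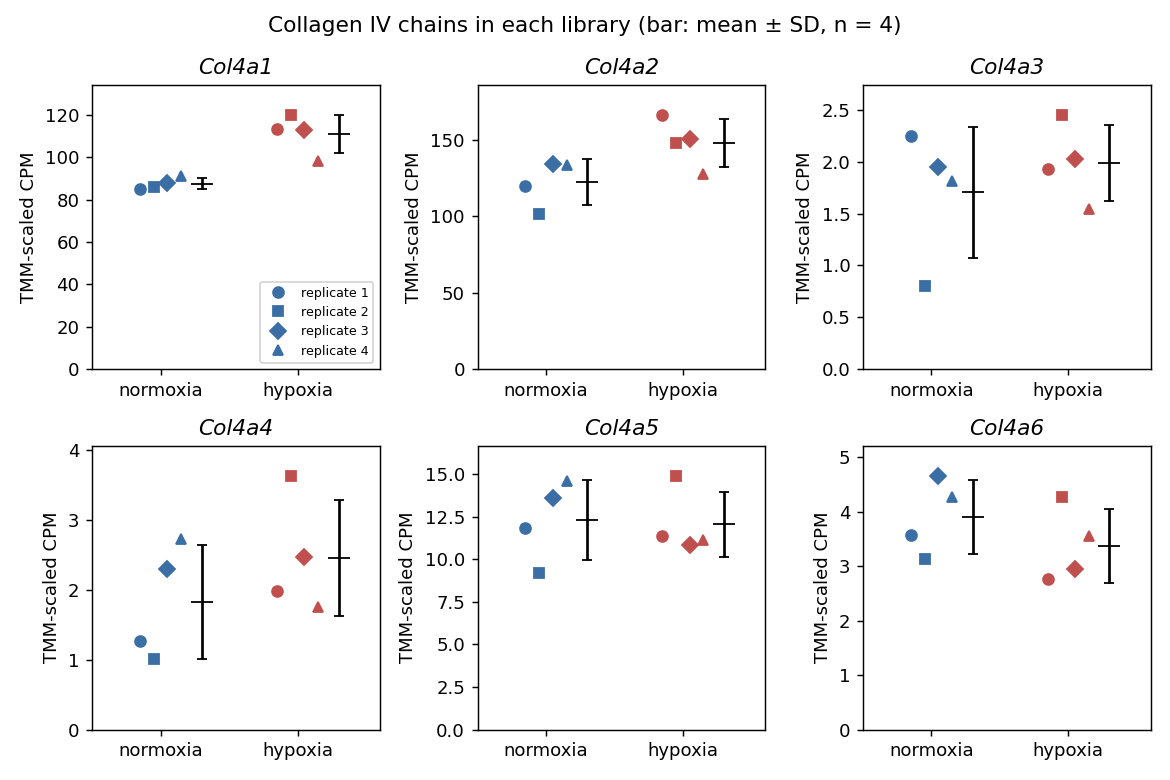
TMM-scaled CPM of the 6 collagen IV genes in the 4 normoxia (blue) and 4 hypoxia (red) libraries, with marker shapes for replicate numbers and black bars for the mean ± SD. All 4 hypoxia libraries lie above the 4 normoxia libraries for Col4a1, and the groups overlap for the other 5 genes.

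**Figure D3:**
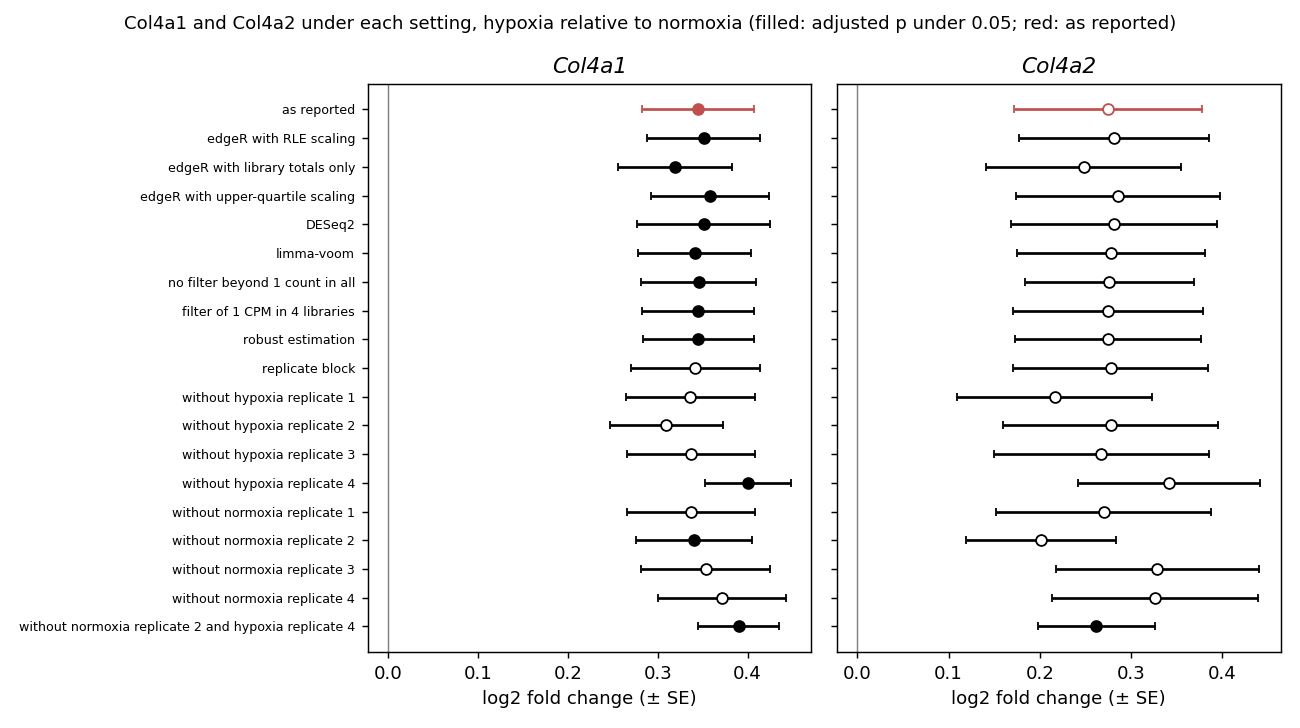
Log2 fold change ± SE of Col4a1 and Col4a2, hypoxia relative to normoxia, as reported (red) and under each of 18 alternatives (black), with filled points where the adjusted p is under 0.05. Col4a1 stays between 0.31 and 0.40 throughout and is filled in 11 of the 18 alternatives, Col4a2 in 1.

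The other collagen IV pairs were at lower levels and were not called. Col4a3 and Col4a4, whose chains serve in basement membranes of kidney and ear, start 72 bases apart on chromosome 1. The 71 bases between the start of the Col4a4 transcript and the nearest annotated Col4a3 exon are shown as the region both genes read out of (GRCm38.p6, chr1:82586850-82586920, minus strand, no capitals). The ACGTG match of the Col4a4 window, given below, lies outside this stretch.
Col4a4: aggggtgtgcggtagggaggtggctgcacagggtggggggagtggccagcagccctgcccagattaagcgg
Col4a4 was at 1.98, 3.62, 2.46 and 1.75 CPM in hypoxia and at 1.27, 1.01, 2.3 and 2.72 CPM in normoxia (log2 0.42 ± 0.34, SE; adjusted p = 0.543). Col4a3 was at 1.99 ± 0.371 CPM in hypoxia and 1.71 ± 0.633 CPM in normoxia (log2 0.22; adjusted p = 0.727). Both were lowest in normoxia replicate 2, with only 15 to 68 counts per library behind them. Col4a3 overlaps C430014B12Rik on the opposite strand by 563 bases, so its count is uncertain if strand was ignored. Col4a5 and Col4a6 start 1309 bases apart on chromosome X and had log2 fold changes of −0.03 ± 0.16 and −0.21 ± 0.18 (SE; adjusted p = 0.935 and 0.571). Of the 6 collagen IV genes 4 had positive log2 fold changes, and the median was 0.25. The summed level of the 6 was 298, 294, 282 and 244 CPM in hypoxia replicates 1 to 4 and 224, 202, 245 and 248 CPM in normoxia replicates 1 to 4, and Col4a1 and Col4a2 made up most of it.

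None of the 11 fibrillar collagen genes was called. Their median log2 fold change was −0.17, with 4 positive and 7 negative values. Col5a2, whose chain helps set the diameter of fibrils, had the smallest p of the class. It was at 12.1, 12.5, 12.4 and 12.8 CPM in hypoxia and at 14.2, 14.7, 12.9 and 14.3 CPM in normoxia, with no overlap, although hypoxia replicate 4 and normoxia replicate 3 nearly met. Its log2 fold change was −0.17 ± 0.07 (SE; adjusted p = 0.237). Its partner chain Col5a1 had −0.36 ± 0.18 (adjusted p = 0.306) and was highest in normoxia replicates 4 and 2, at 17.2 and 15.9 CPM. It overlaps Gm13372 and 2810430I11Rik on the opposite strand. Col5a3 had −0.04. On the positive side, Col11a1, a fibrillar chain best known from cartilage, was at 69.4, 61, 74.8 and 57.8 CPM in hypoxia and at 54.6, 42.2, 59.2 and 62 CPM in normoxia (log2 0.27 ± 0.12, SE; adjusted p = 0.269). Normoxia replicate 2 was the lowest library, and the groups overlapped. Its partners Col11a2 and Col2a1 had 0.10 and 0.18, and Col27a1 had 0.18. Col27a1 was highest in hypoxia replicate 2, at 26.4 CPM against 13.7 to 17 CPM in the other 7 libraries.

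The chains of collagens I and III, the main fibrillar collagens of the meninges, varied together across libraries, and they did so within both groups. The DNA just before 2 of these genes is shown with a different motif marked in each. The part of these stretches in the collagen values was not tested. The capitals mark ACGTG, the core bases of the HIF response element, on either strand in Col1a2 (chr6:4505370-4505492, plus strand). In Col3a1 (chr1:45311288-45311537, plus strand) they mark TATAAA, the letters of the TATA box motif, searched at any distance from the start. Both stretches are from RefSeq windows of GRCm38.p6 that hold 250 bases before the start, without annotated exon bases. A longer annotated Col1a2 transcript has an intron there.
Col1a2: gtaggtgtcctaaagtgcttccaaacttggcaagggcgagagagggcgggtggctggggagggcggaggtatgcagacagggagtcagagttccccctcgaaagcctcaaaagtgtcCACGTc
Col3a1: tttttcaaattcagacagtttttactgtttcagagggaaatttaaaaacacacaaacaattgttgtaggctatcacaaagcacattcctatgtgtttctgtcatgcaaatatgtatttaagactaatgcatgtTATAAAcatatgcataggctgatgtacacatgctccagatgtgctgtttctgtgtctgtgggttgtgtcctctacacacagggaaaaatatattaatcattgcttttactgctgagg
A match to these letters is a description of the sequence and not a binding site.

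Col1a1 was at 18.8, 24.9, 14.5 and 18.8 CPM in hypoxia replicates 1 to 4 and at 23.1, 20.3, 24.3 and 31.8 CPM in normoxia replicates 1 to 4. Hypoxia replicate 2 overlapped the normoxia group, and hypoxia replicate 3 was the lowest of the 8. For Col1a1 the log2 fold change was −0.37 ± 0.18 (SE; adjusted p = 0.281). Col1a2, which joins Col1a1 in collagen I, was at 30.9, 51.4, 27.3 and 38 CPM in hypoxia and at 43.1, 32.4, 42.6 and 55.4 CPM in normoxia (log2 −0.23 ± 0.21, SE; adjusted p = 0.578). Col3a1, the chain of collagen III, was at 12.2, 20.8, 8.41 and 11.8 CPM in hypoxia and at 15.5, 9.94, 17.5 and 21 CPM in normoxia (log2 −0.27 ± 0.29, SE; adjusted p = 0.651). In all 3 genes normoxia replicate 4 was the highest library and hypoxia replicate 3 the lowest, and hypoxia replicate 2 was the highest of its group. The 14 meningeal fibroblast markers had the same extremes. They summed to 117, 177, 96 and 129 CPM in hypoxia replicates 1 to 4 and to 151, 120, 155 and 223 CPM in normoxia replicates 1 to 4. None of the 14 was called by edgeR, 1 had an unadjusted p under 0.05, and 0 of 14 had a positive log2 fold change (median −0.34). The part of this marker level in the collagen values was not tested.

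**Figure D4:**
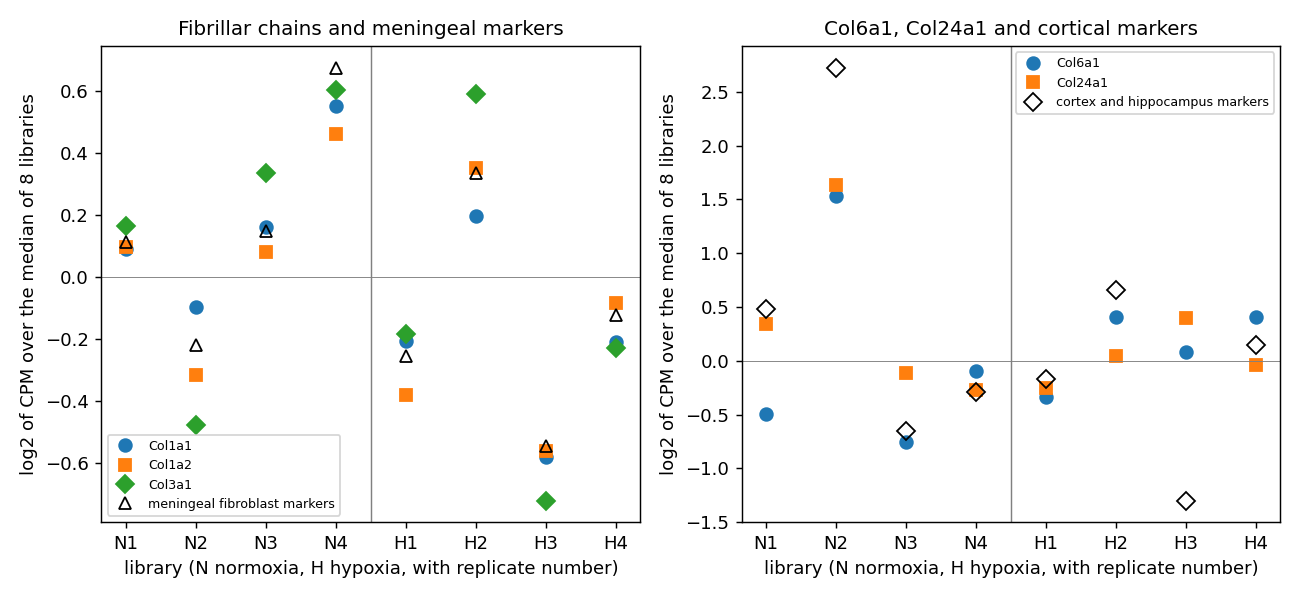
Log2 of CPM over the median of the 8 libraries for each library (N normoxia, H hypoxia), for Col1a1, Col1a2, Col3a1 and the summed meningeal fibroblast markers (left) and for Col6a1, Col24a1 and the summed cortical and hippocampal markers (right). In the left panel N4 is highest and H3 lowest for each quantity, and in the right panel N2 is highest for each.

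Collagen VI forms beaded filaments near cell surfaces, and its genes had a median log2 fold change of 0.25, with 4 of 6 values positive and 0 called. Col6a3 had the smallest p. It was at 13.7, 17.2, 12.1 and 10.4 CPM in hypoxia and at 8.89, 7.18, 11.7 and 10.9 CPM in normoxia. The groups overlapped at hypoxia replicate 4, which lay below normoxia replicates 3 and 4. That gave a log2 fold change of 0.47 ± 0.19 (SE; adjusted p = 0.215). Col6a4, Col6a5 and Col6a6, long chains whose genes lie near each other on chromosome 9, had 0.62 ± 0.39, 0.31 ± 0.23 and 0.19 ± 0.30 (SE; adjusted p = 0.426, 0.497 and 0.774). Col6a4 ran from 2.49 to 8.17 CPM and was low in 1 hypoxia and 3 normoxia libraries. Col6a4 and Col6a6 overlap Gm-numbered genes on the opposite strand.

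Col6a1 and Col6a2 encode chains that assemble with each other, and both genes are on chromosome 10, with starts 102538 bases apart, yet they varied differently across libraries. Col6a1 was at 41.3, 68.7, 55.2 and 69.1 CPM in hypoxia and at 37, 151, 30.9 and 48.8 CPM in normoxia. Normoxia replicate 2 had the highest value of the 8, and the other 3 normoxia libraries lay at or near the low end. Col6a2 was at 18.5, 30.2, 18 and 20.7 CPM in hypoxia and at 22.1, 19.2, 21.5 and 26.8 CPM in normoxia, with normoxia replicate 2 inside the range. The ratio of Col6a1 to Col6a2, per kilobase, was 14.9 in normoxia replicate 2 and 2.73 to 6.35 in the other 7 libraries. The log2 fold change of Col6a1 was −0.19 ± 0.46 (SE; adjusted p = 0.859), and without normoxia replicate 2 it was 0.59 ± 0.19 (adjusted p = 0.11). That of Col6a2 was −0.04 ± 0.17. Col24a1, a fibrillar collagen known from developing bone and cornea, was also highest in normoxia replicate 2, at 24.9 CPM against 6.63 to 10.6 CPM in the other 7, and its log2 fold change of −0.56 became 0.05 without that library. The glutamate transporter gene Slc17a7, a marker of cortical neurons, was at 384 CPM in the same library, against 7.92 to 80.3 CPM in the other 7. How much of the Col6a1 and Col24a1 values comes from cortical tissue was not tested.

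**Figure D5:**
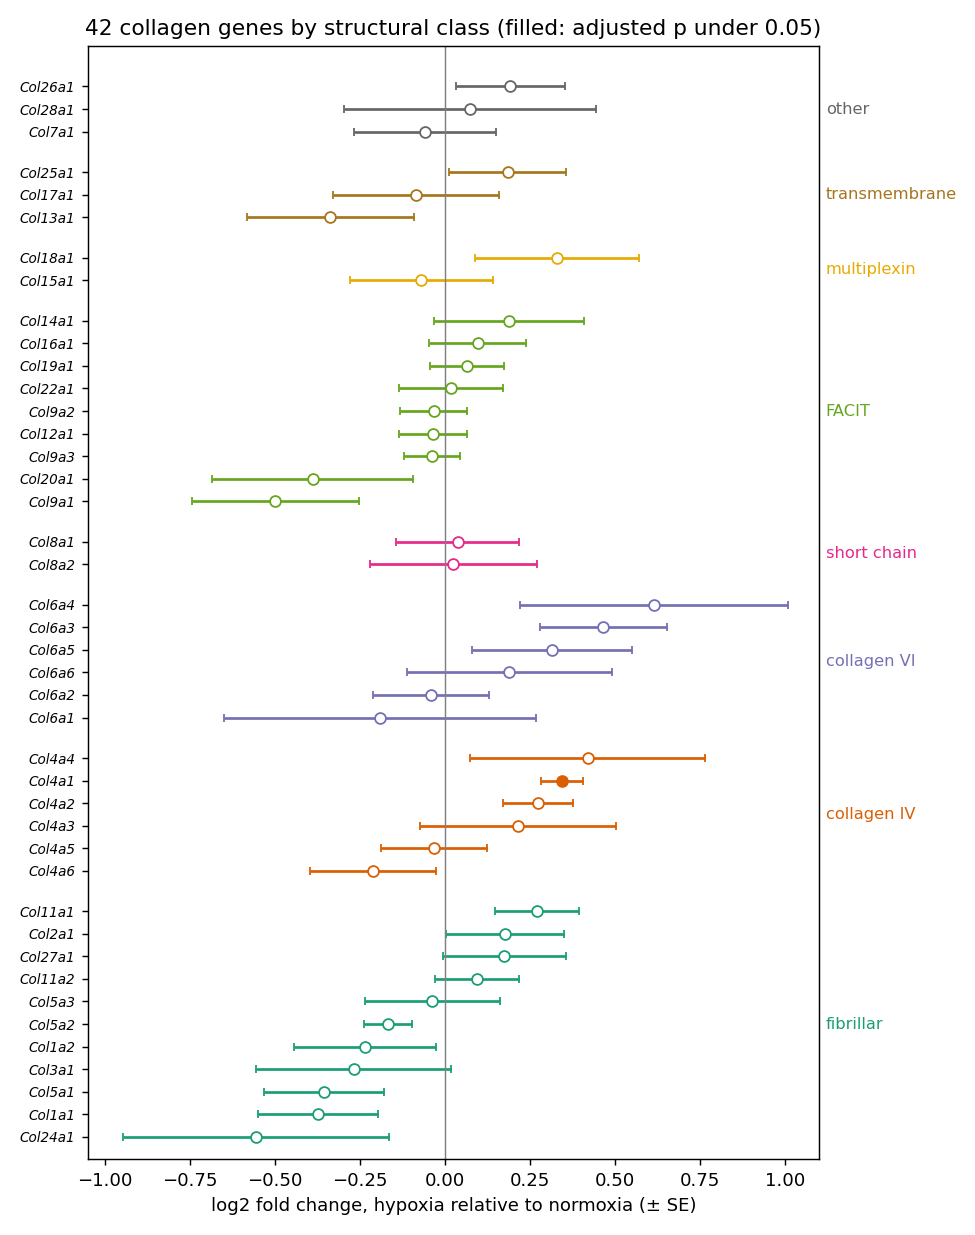
Log2 fold change ± SE, hypoxia relative to normoxia, of the 42 collagen genes tested, grouped by structural class, with a filled point for an adjusted p under 0.05. Col4a1 is the only filled point, and the other 41 genes have open points on both sides of 0.

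The FACIT collagens, which sit on the surface of fibrils, had a median log2 fold change of −0.03 over 9 genes, with 0 called. Col9a1, a cartilage chain, had the smallest p of the class. It was at 1.06, 1.55, 0.87 and 0.749 CPM in hypoxia and at 1.55, 1.7, 1.49 and 1.23 CPM in normoxia, with hypoxia replicate 2 inside the normoxia range (log2 −0.50 ± 0.25, SE; adjusted p = 0.302). It had 15 to 33 counts per library. Its partner chains Col9a2 and Col9a3, expressed at far higher levels per kilobase, had log2 fold changes of −0.03 and −0.04, and Col9a3 overlaps Tcfl5 on the opposite strand by 234 bases. Col16a1, Col14a1, Col19a1 and Col22a1 had 0.10, 0.19, 0.06 and 0.02, and Col12a1 and Col20a1 had −0.04 and −0.39. Col20a1 was at 7.6 CPM in normoxia replicate 2 and at 2.66 to 4.11 CPM in the other 7, and its log2 fold change was 0.00 without that library.

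The multiplexins of basement membranes are Col15a1 and Col18a1, and Col18a1 is the source of endostatin, a fragment that restrains vessel growth. Col18a1 was at 22.4, 42.6, 22.5 and 20.5 CPM in hypoxia and at 21.6, 15.6, 24.5 and 24.2 CPM in normoxia. Hypoxia replicate 2 was far above the other 7, which overlapped. With all libraries the log2 fold change was 0.33 ± 0.24 (SE; adjusted p = 0.492), and it was 0.03 ± 0.15 without that library. Col15a1 had −0.07 ± 0.21 and was lowest in normoxia replicate 2, at 10.1 CPM against 15.5 to 22.3 CPM elsewhere.

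Of the membrane-bound collagens, Col25a1 was at 151, 133, 151 and 144 CPM in hypoxia and at 162, 80.9, 136 and 131 CPM in normoxia. Normoxia replicate 2 had the lowest value, and the other 7 libraries overlapped. Over all 8 libraries it was 0.18 ± 0.17 on the log2 scale (SE; adjusted p = 0.597), and 0.02 ± 0.08 without normoxia replicate 2. Col13a1, found at cell contacts and the neuromuscular junction, was at 1.31, 1.6, 2.42 and 1.1 CPM in hypoxia and at 1.93, 1.81, 2.35 and 2.04 CPM in normoxia (log2 −0.34 ± 0.25, SE; adjusted p = 0.49). Hypoxia replicate 3 was the highest of the 8 and the other 3 hypoxia libraries were the lowest. Col17a1, a skin hemidesmosome collagen, was under 1.2 CPM in each library, with a log2 fold change of −0.08.

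In the remaining classes no gene was called. The median log2 fold change was 0.03 for the short-chain genes tested and 0.08 for Col7a1, Col26a1 and Col28a1. The short-chain collagens Col8a1 and Col8a2, which form the hexagonal lattice under the corneal endothelium, had log2 fold changes of 0.04 ± 0.18 and 0.02 ± 0.25 (SE; adjusted p = 0.934 and 0.967). Col8a1 was at 8.03, 7.57, 5.94 and 6.34 CPM in hypoxia and at 7.19, 4.57, 8.21 and 7.17 CPM in normoxia, again lowest in normoxia replicate 2. Col26a1 was at 12, 8.47, 9.52 and 9.48 CPM in hypoxia and at 10.7, 6.54, 9.02 and 8.31 CPM in normoxia (log2 0.19 ± 0.16, SE; adjusted p = 0.551). Col7a1, the anchoring fibril collagen of skin, and Col28a1 had −0.06 and 0.08.

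Motifs were searched in RefSeq windows of 300 bases (250 before and 50 after the start), which were found for 34 of the 43 genes as 37 windows. The letters ACGTG, on either strand, were in 5 of the 37 (13.5%, in Col11a2, Col1a2, Col4a4, Col5a1 and Col6a6), beside 19.6% of all 32851 windows. The half-site AGAACA of the glucocorticoid response element was in 2 (5.41%, in Col20a1 and Col9a1), beside 19% of all windows. The GC box GGGCGG was in 22 (59.5%), Col4a1 and Col4a2 among them, beside 35.7% of all windows. The windows of Col4a1 and Col4a2 cover part of the same bases, so they are not separate cases. TATAAA was in 5 (13.5%), beside 13.6% of all windows. Absence from a window says only that the letters are not there.

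The enzymes and partners that collagens need were counted on 7 lists. Of the 23 genes for chain modification and folding, 1 was higher and 0 were lower, beside 0.915% and 1.23% of all genes, and 7 had an unadjusted p under 0.05, beside 19.3% of all genes. The called gene was Plod2, a lysyl hydroxylase that prepares chains for cross-linking and a known HIF target, at 19.8, 17.3, 20 and 14.7 CPM in hypoxia and at 11.2, 12.4, 13 and 12.9 CPM in normoxia. The groups did not overlap (log2 0.54 ± 0.11, SE; adjusted p = 0.0424). Plod2 overlaps Gm38391 on the opposite strand by 346 bases. As with Col4a1, its call was kept without normoxia replicate 2 or hypoxia replicate 4 and lost without any 1 of the other 6 libraries, where the adjusted p ran from 0.0894 to 0.154. Of the 18 basement membrane partners, 0 were higher and 1 was lower, beside the same shares of all genes, and 4 had an unadjusted p under 0.05. Nothing about either list as a whole is read from a single call. The basement membrane gene was Pxdn, which encodes peroxidasin, the enzyme that cross-links collagen IV through sulfilimine bonds. Pxdn was at 53.1, 46, 49 and 57.5 CPM in hypoxia and at 60.3, 71.9, 68.9 and 65.7 CPM in normoxia, again without overlap (log2 −0.38 ± 0.08, SE; adjusted p = 0.048). Its call was lost with RLE scaling (adjusted p = 0.0509), with upper-quartile scaling (0.0569), and on leaving out hypoxia replicate 1, 2 or 3 or normoxia replicate 1, 3 or 4 (0.071 to 0.171).

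In the other 5 lists edgeR called 0 genes, and their counts at an unadjusted p under 0.05 stand beside 19.3% of all genes. Of 11 tested for processing and cross-linking, 2 had an unadjusted p under 0.05, and the smallest p was that of Bmp1, the procollagen C-proteinase (log2 −0.38, adjusted p = 0.157). Of 10 collagen receptors tested, 0 had an unadjusted p under 0.05, and the collagen III receptor gene Adgrg1 led with a log2 of 0.10 (adjusted p = 0.269). Of 12 breakdown enzymes and inhibitors, 2 had an unadjusted p under 0.05, led by the membrane metalloproteinase gene Mmp24 (log2 −0.45, adjusted p = 0.0816). Of 14 fibril-associated genes 1 had an unadjusted p under 0.05, Thbs1, a thrombospondin (log2 −0.54, adjusted p = 0.2), and 2 of the 14 log2 fold changes were positive. Of 14 genes of the TGF-beta axis, the main inducer of collagen transcription, 3 had an unadjusted p under 0.05, led by Skil, a feedback inhibitor of SMAD proteins (log2 0.28, adjusted p = 0.0538). DESeq2 called 1 breakdown gene lower, Mmp24, and 2 genes of the TGF-beta axis higher, with Skil among them, and it called 3 chain modification genes higher. Of the collagen genes, DESeq2 and limma-voom each called Col4a1 higher and no other. The background was 2.25% of genes higher, 3.66% lower and 5.91% in either direction with DESeq2, and 0.974%, 1.47% and 2.44% with limma-voom.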

How the data were processed

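RNA was sequenced from mouse hypothalamus as stranded libraries of polyadenylated RNA, 4 from hypoxia and 4 from normoxia, per the labels' protocols. The values the authors deposited are unnormalised counts of reads for each Ensembl gene in each library. Per the submitters' processing notes, mm10 was the build and featureCounts, HISAT2 2.0.4, SAMtools and Trimmomatic were among the tools. Sources used here do not give the annotation release, the strand setting or how multi-mapped reads were treated.

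Columns were matched by the names in the sample descriptions. Symbols, positions and exon lengths came from GENCODE M21 (GRCm38). Genes were kept by filterByExpr (minimum count 10, minimum total 15), scaled by TMM and tested with edgeR 4.0.16 in R 4.3.3 (quasi-likelihood F test, group as the only term, Benjamini-Hochberg over all genes tested, threshold 0.05). Standard errors are the log2 fold change over the root of F. Alternatives were DESeq2 1.42.0, limma-voom (limma 3.58.1), edgeR with RLE, upper-quartile or no scaling, other filters, a looser threshold, robust dispersion, a replicate block, and fits with libraries left out.

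Members, classes and lists were chosen with earlier results of these data known. Per-library values are given for members called, for the smallest p of each class and for the 3 highest levels per kilobase, and for other members that 1 library or a marker list bears on, chosen after their values were seen. From each partner list the called genes are named, or the one with the smallest p. The design text calls the libraries biological replicates without naming animals. A p-value therefore weighs the difference between the groups against the spread among these 8 libraries, and what a library stands for is not known. Within a group, libraries differed by more than sampling noise (chi-square per gene from 4.62 to 37.3), so none was counted as a repeat.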

Additional observations from a re-analysis of the deposited data

Results flagged for a closer look

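Within a group of 4 libraries, 1 library was far from the other 3 (Dixon's test at the 95% level) in 4 of 86 groups of collagen values and in 1 marker sum, of 106 groups examined. Chance alone picks out about 1 in 20 such groups. Col6a1 was at 150.7 CPM in normoxia replicate 2, against 30.9 to 48.8 CPM in the other 3 normoxia libraries. Col20a1 was at 7.6 CPM in the same library, against 2.93 to 3.72 CPM. The summed cortical and hippocampal markers were at 444.3 CPM there, against 42.7 to 93.9 CPM. Col18a1 was at 42.6 CPM in hypoxia replicate 2, against 20.5 to 22.5 CPM in the rest of its group. Col4a5 was at 14.9 CPM in hypoxia replicate 2, against 10.8 to 11.4 CPM.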

How the results depend on the processing

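Of the 42 collagen genes tested, 21 kept the sign of their log2 fold change under every alternative run and 21 reversed it under at least 1. No gene that reversed was called in any fit. Col4a1 stayed positive in all 18 alternatives, with an adjusted p from 0.000245 to 0.136, and was called in 11. Low counts limit Col9a1, Col4a3, Col4a4, Col13a1, Col22a1, Col28a1 and Col17a1, which had 68 counts or fewer in each library.

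With the replicate number as a block, the log2 fold change of Col4a1 was 0.34 (adjusted p = 0.136), so 0 collagen genes were called higher, and over all genes 20 were higher and 1 lower. The block also left 0 chain modification genes higher and 0 basement membrane genes lower, and gave Col6a1 0.088 and Col5a3 0.0015. The numbers did not pair the libraries: deviations of same-numbered libraries had correlations from −0.105 to 0.043, and no library correlated best with its own number.

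Without normoxia replicate 2 and hypoxia replicate 4 together, 2 collagen genes were higher (Col4a1 and Col4a2), with 456 genes of all higher and 739 lower. That fit also called 3 chain modification, 1 basement membrane and 2 TGF-beta axis genes higher and 1 breakdown gene lower. It reversed Col24a1 (0.076), Col9a3 (0.036), Col6a1 (0.50), Col7a1 (0.23), Col8a1 (−0.066), Col22a1 (−0.0699) and Col8a2 (−0.10), and gave the most extreme values of Col28a1 (0.54) and Col5a3 (−0.22). DESeq2 called 384 genes higher and 624 lower, with 3 chain modification and 2 TGF-beta axis genes higher and 1 breakdown gene lower. At an adjusted p under 0.1, edgeR called 384 higher and 674 lower, with 3 chain modification, 1 basement membrane and 2 TGF-beta axis genes higher and 1 breakdown gene lower. Upper-quartile scaling called 2 chain modification genes and 1 TGF-beta axis gene higher, as did robust estimation. Over all genes, upper-quartile scaling called 157 higher and 164 lower, and robust estimation 169 and 254. Upper-quartile and RLE scaling each left 0 basement membrane genes lower, and RLE scaling called 159 genes of all higher and 186 lower. Library totals alone gave 342 genes lower and reversed Col22a1 (−0.0083) and Col8a2 (−0.0042). With limma-voom, Col6a1 was 0.0904, Col7a1 0.017 and Col5a3 0.015.

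On leaving out each library in turn, collagen genes called higher ran from 0 to 1, called lower stayed at 0, and those without overlap ran from 2 to 4. The share of all genes without overlap was not computed for these smaller sets, in which groups separate more easily. Nothing about collagen genes is therefore read from that range. The median log2 fold change of the collagen genes ran from −0.005 to 0.10, and that of Col4a1 from 0.31 to 0.40. Over all genes, 24 to 329 were higher and 2 to 457 lower. Chain modification ran from 0 to 3 higher, the basement membrane from 0 to 1 higher and 0 to 1 lower, breakdown from 0 to 1 lower, fibril-associated from 0 to 1 lower, and the TGF-beta axis from 0 to 2 higher. The cause of the lost and gained calls was not tested. Ranges that crossed 0 were as follows. Col24a1 ran from −0.76 to 0.05, Col20a1 from −0.53 to 0.0017, Col27a1 from −0.059 to 0.29, Col11a2 from −0.0039 to 0.18 and Col4a3 from −0.011 to 0.39. Col16a1 ran from −0.026 to 0.18, Col19a1 from −0.0061 to 0.11, Col9a3 from −0.10 to 0.0025, Col6a1 from −0.42 to 0.59 and Col12a1 from −0.11 to 0.032. Col17a1 ran from −0.19 to 0.095, Col9a2 from −0.11 to 0.0404, Col15a1 from −0.26 to 0.057, Col7a1 from −0.20 to 0.21 and Col6a2 from −0.23 to 0.064. Col8a1 ran from −0.10 to 0.14, Col28a1 from −0.14 to 0.44, Col4a5 from −0.14 to 0.069, Col5a3 from −0.19 to 0.16, Col22a1 from −0.047 to 0.092 and Col8a2 from −0.16 to 0.22.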
